A study of Mus musculus with 4 samples.

Results

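Connexins are the membrane proteins of vertebrate gap junctions, and 4 of their genes are described here: Gja1, Gjb2, Gjb5 and Gjc1. They were selected by gene name from a table of 51826 mouse genes, 17 connexin genes of which are analysed here, and Gja1 was picked out because it had been seen to be high in the mutant cells. The comparison between genotypes is therefore a description for these 4 genes and was not tested for them. RNA sequencing was done on 4 libraries of mouse embryonic stem cells of C57BL/6 background that had been directed towards mesoderm for 3 days. Wild-type cells gave 2 libraries and so did Stk40-/- cells, called mutant below, in which Stk40, the gene of a pseudokinase, is deleted. The series asks how this deletion affects the c-JUN protein and the formation of mesoderm.

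Both genotypes went through the same culture. Stem cells had been kept on inactivated fibroblast feeders with LIF at 1000 U/ml, the GSK3 inhibitor CHIR99021 at 3 uM and the MEK inhibitor PD0325901 at 1 uM, and were passaged on gelatin to remove the feeders. They received BMP4 at 10 ng/ml for 2 days with 1% serum replacement and 0.1% albumin, and then CHIR99021 at 1 uM with 15% serum replacement and 0.5% DMSO for 1 day. The labels do not say whether the libraries of a genotype came from separate cultures or whether each genotype is a single line, so the spread between libraries may be technical and a difference between genotypes may be one between lines.

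A connexin crosses the membrane 4 times, and its extracellular loops dock with those of a connexin in the neighbouring cell. A ring of connexins in 1 membrane forms a hemichannel, and the paired hemichannels of adjoining cells pass ions and small molecules such as cAMP and IP3. Gja1 encodes Cx43, the most widely expressed connexin, and Gjc1 encodes Cx45, which is found in the early embryo and the conduction system of the heart. Gjb2 encodes Cx26, known from the cochlea, the skin and the mouse placenta, and Gjb5 encodes Cx31.1, known from the skin and the trophoblast. The Gja1 promoter is a known place of action of AP-1, the family of transcription factors to which c-JUN belongs.

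The 4 genes lie on separate chromosomes, and in the GENCODE vM21 annotation of GRCm38 each has its whole coding sequence in 1 exon. Gja1 (ENSMUSG00000050953.10) is on the plus strand of chromosome 10, from 56377330 to 56402513, with 8 annotated transcripts and a coding sequence of 382 codons. Gjc1 (ENSMUSG00000034520.14) is on the minus strand of chromosome 11, from 102799579 to 102819700, with 396 codons. Gjb2 (ENSMUSG00000046352.7) is on the minus strand of chromosome 14, from 57098600 to 57104702, and has 226 codons. Gjb5 (ENSMUSG00000042357.2) is on the minus strand of chromosome 4, from 127354809 to 127358181, and has 271 codons. None of the 4 overlaps another annotated gene. The 2 genes of the beta class are thus the shortest of the set, and only Gjb5 shares its chromosome with Stk40.

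Because the series concerns c-JUN, the bases upstream of the transcription start were searched for the AP-1 motif TGANTCA and for 5 other motifs, on both strands. The RefSeq promoter table (GRCm38.p6) held 3 of the 4 genes, Gja1, Gjb2 and Gjb5, and 250 bases before each start were read. The windows of the 2 genes whose libraries separated by genotype, Gja1 at chr10:56377050-56377299 on the plus strand and Gjb5 at chr4:127358165-127358414 on the minus strand, read as follows, with motif matches in capitals.
Gja1: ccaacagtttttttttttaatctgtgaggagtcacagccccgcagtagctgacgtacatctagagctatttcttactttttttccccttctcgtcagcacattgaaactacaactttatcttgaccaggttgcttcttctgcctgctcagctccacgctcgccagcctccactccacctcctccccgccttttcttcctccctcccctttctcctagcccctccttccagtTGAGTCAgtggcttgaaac
Gjb5: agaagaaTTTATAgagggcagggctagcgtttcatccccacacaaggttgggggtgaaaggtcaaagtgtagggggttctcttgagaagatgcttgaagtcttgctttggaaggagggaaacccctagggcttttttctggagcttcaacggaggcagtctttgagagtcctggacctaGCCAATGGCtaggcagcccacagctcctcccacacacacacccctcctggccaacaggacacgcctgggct
Gja1 had 1 match to the AP-1 motif, TGAGTCA, which begins 19 bases before the RefSeq start (itself upstream of the GENCODE start at 56377330), and 6.75% of 32817 such windows in the table hold this motif. It was the only one of the 6 motifs that matched in the Gja1 window. Gjb5 had a match to the TATA box letters TATAAA on the opposite strand, 243 bases before the start, and a match to the AP-2 motif GCCNNNGGC, GCCAATGGC, 71 bases before it. These occur in 12.4% and 13.7% of the windows. Gjb2 had 2 matches to the GC box GGGCGG (32.7% of windows) and 1 to the AP-2 motif, which overlaps one of them. The cyclic AMP response element TGACGTCA (1.55% of windows) and the T-box letters TCACACC (3.33% of windows) matched in none of the 3. A match is a run of letters and does not show that a factor is bound.

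Values are TPM, a transcript abundance that is scaled for transcript length and library size and that can be compared between genes. Fold changes are log2 differences of Stk40-/- minus wild type of log2(TPM + 1) values, so that changes of low genes come out too small, and their standard error (SE) comes from the spread within the groups. The depth of the libraries is unknown from TPM, so no counting error is given. Stk40 itself was at 28.9 and 39.9 TPM in wild-type libraries against 3.54 and 3.17 TPM in mutant libraries, so the labels and the targeted gene went together. Of the streak and mesoderm markers listed, 8 of 12 averaged 1 TPM or more, and T, the brachyury gene, was at 1030 and 535 TPM in wild-type libraries against 355 and 217 TPM in mutant libraries. Of the same list, Kdr, Pdgfra and Mesp1 were under 1 TPM in every library, and Tbx6 was above it only in wild-type library 1 (2.33 TPM). Msgn1 was at 90.6 and 7.22 TPM in wild-type libraries against 0.975 and 0 TPM in mutant libraries. Over the 15739 genes that averaged 1 TPM or more, limma with Benjamini-Hochberg adjustment passed 0 genes in the higher and 0 in the lower direction at 0.05 (0% of tested genes each way), while 1020 were higher and 710 lower at an unadjusted p under 0.05. Even the deleted gene Stk40, with a log2 fold change of -3.01, was not called (limma adjusted p = 0.139). The absence of a call thus does not show that a gene is unchanged. Counts are therefore also given for genes in which both mutant libraries lay above, or both below, both wild-type libraries. This held for 27.5% of tested genes in the higher direction and 16.6% in the lower direction. With all libraries set to the same median, which lowers the fold changes by about 0.08, the shares were 18.7% and 25.1%.

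Gja1 was the most abundant of the 17 connexin transcripts in every library. It was at 191 and 207 TPM in wild-type libraries against 279 and 297 TPM in mutant libraries. Both mutant libraries were above the wild-type pair, and the distance between the nearest libraries of the 2 groups, 0.43 on the log2 scale, was larger than the distance between replicates, 0.11 in wild type and 0.09 in Stk40-/- cells. The means were 199 ± 11.0 and 288 ± 12.6 TPM (SD, n = 2 each), a ratio of 1.45 and a log2 fold change of 0.53 (SE 0.071). Gja1 ranked 715 and 634 by TPM among all genes in the wild-type libraries and 465 and 445 in the Stk40-/- libraries. A log2 fold change at least as high was found in 10.7% of all tested genes, and in 2.35% of the 935 tested genes whose mean level was within 2-fold of that of Gja1. It was this difference that led to the choice of Gja1, so it lends no support of its own. With any 1 library left out the log2 fold change was between 0.48 and 0.59.

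Gjc1, of the gamma class of connexins, was second in abundance and overlapped between genotypes. It was at 35.2 and 42.5 TPM in wild-type libraries against 38.5 and 43.6 TPM in mutant libraries. Each genotype had a lower and a higher library, 0.27 apart on the log2 scale in wild type and 0.17 apart in the mutant, and the ranges overlapped. The means were 38.8 ± 5.20 and 41.1 ± 3.57 TPM. Their log2 fold change of 0.08 (SE 0.16) was smaller than either gap between replicates. Leaving out wild-type library 1 gave -0.05, and leaving out the other wild-type library gave 0.22. The ratio of Gja1 to Gjc1, in which library scaling cancels, was 5.44 and 4.86 in wild type and 7.25 and 6.82 in Stk40-/- cells, with no overlap. This ratio reuses the Gja1 values that led to the choice of that gene, so it lends no support of its own.

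**Figure D1:**
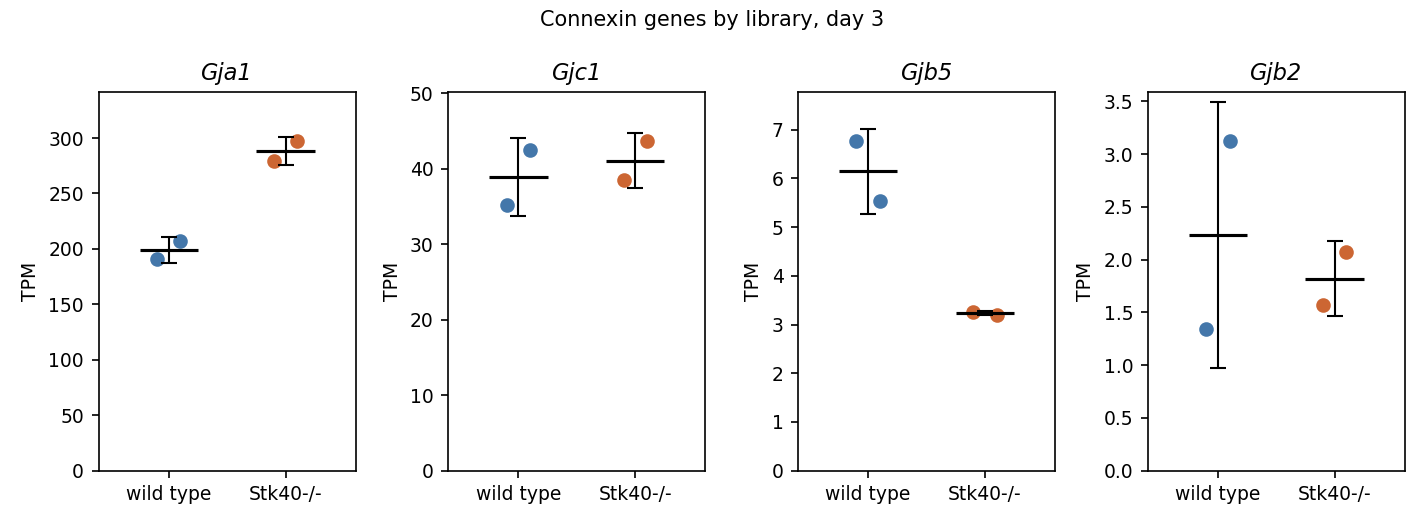
TPM of Gja1, Gjc1, Gjb5 and Gjb2 (vertical axes, each from 0) in the 2 wild-type and 2 Stk40-/- libraries, with points for libraries, a bar for the group mean and whiskers for 1 SD. Gja1 is higher and Gjb5 lower in both Stk40-/- libraries than in both wild-type libraries, whereas Gjc1 and Gjb2 overlap.

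Gjb5 was far less abundant than Gja1 and lay in the opposite direction. It was at 6.76 and 5.53 TPM in wild-type libraries against 3.26 and 3.20 TPM in mutant libraries. Both Stk40-/- libraries were below both wild-type libraries and nearly equal to each other, and the nearest libraries of the groups were 0.62 apart on the log2 scale. The means were 6.15 ± 0.866 and 3.23 ± 0.0468 TPM, a ratio of 0.525 and a log2 fold change of -0.75 (SE 0.12). A log2 fold change at least as low was found in 6.45% of all tested genes and in 9.81% of the 4016 tested genes within 2-fold of its level. Gjb5 too was chosen with values of this contrast known, so these shares lend no support of their own. Without wild-type library 1 the value was -0.63, and without wild-type library 2 it was -0.88. A smaller pseudocount of 0.1 TPM gave -0.90.

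Gjb2 was the lowest of the 4 genes, and its wild-type libraries enclosed the Stk40-/- libraries. It was at 1.34 and 3.12 TPM in wild-type libraries against 1.57 and 2.07 TPM in mutant libraries. The log2 fold change of -0.14 (SE 0.43) was smaller than the difference of 0.82 between the 2 wild-type libraries. Its sign rested on 1 library, since it was 0.27 when wild-type library 2 was left out and -0.55 when the other wild-type library was. Each of the 4 genes was above 1 TPM in every library, so none passed the filter through 1 group alone.

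Of the 17 connexin genes analysed, these 4 alone averaged 1 TPM or more and so entered the limma fit, from which no p is read for them. Of the 4, 1 was higher (27.5% of all tested genes) and 1 lower (16.6%) without overlap and 2 overlapped, which is near the share over all genes, with a median log2 fold change of -0.03 beside 0.07 over all tested genes. With so few genes this median lies between the values of Gjc1 and Gjb2, and it ran from -0.30 without wild-type library 1 to 0.24 without wild-type library 2.

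**Figure D2:**
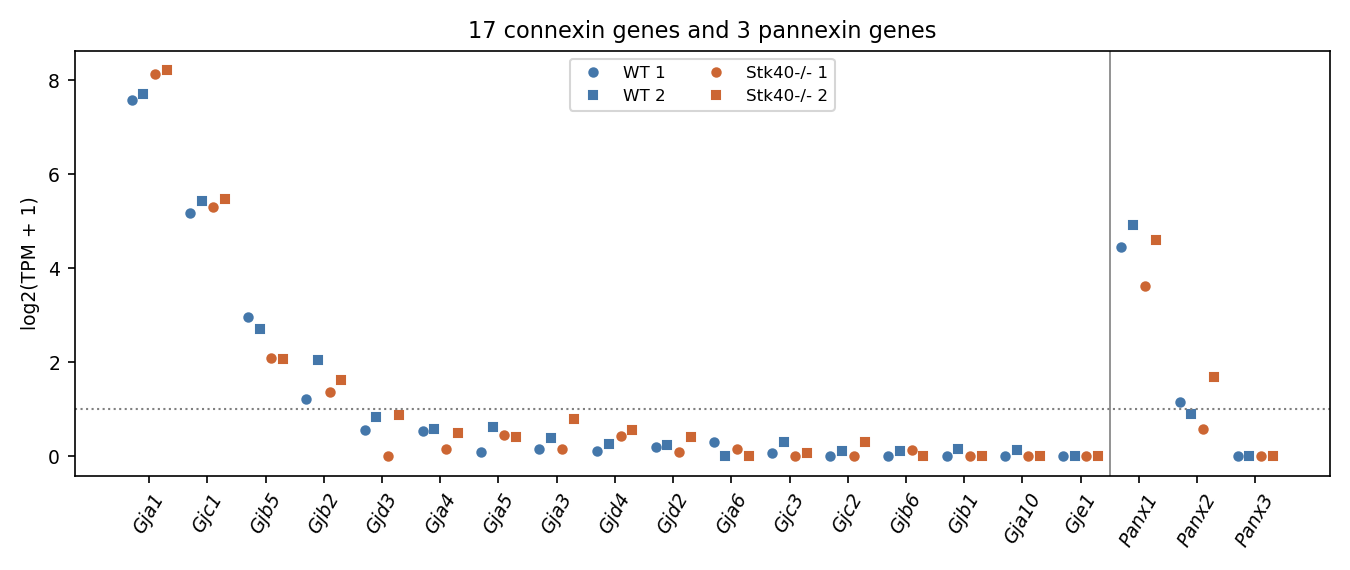
Level of 17 connexin genes and 3 pannexin genes as log2(TPM + 1) (vertical axis) in each library, connexins first and each family ordered by mean level, with the dotted line at 1 TPM. Gja1, Gjc1, Gjb5 and Gjb2 lie above the line in every library, and the other 13 connexins shown lie below it.

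The other 13 connexin genes analysed had no library above 0.825 TPM, the value of Gjd3 in Stk40-/- library 2. Of these, 12 had some signal and 1, Gje1, was listed at 0 in all 4 libraries. Summed over the 13 genes the level was 1.59 and 3.12 TPM in wild-type libraries against 1.21 and 3.37 TPM in mutant libraries, so the sum overlapped between genotypes. With the filter above 0 TPM, 2 of 16 connexins were higher and 2 lower without overlap, beside 20.7% and 14.6% of all genes in that setting. Besides Gja1 and Gjb5 these were Gjd4, higher at 0.0736 and 0.199 against 0.353 and 0.475 TPM, and Gja4, lower. Both were under 0.5 TPM in every library. Gja5, the gene of Cx40 in atrial muscle and arterial endothelium, was at 0.0609 and 0.546 TPM in wild-type libraries against 0.362 and 0.322 TPM in mutant libraries. The connexins of the liver, glia and neurons, such as Gjb1, Gjc3 and Gjd2, belong to this low group.

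The order of the 4 genes was the same in 4 of 4 libraries, namely Gja1, Gjc1, Gjb5 and Gjb2 from high to low. The ranges of neighbours in this order did not overlap over the 4 libraries, although the lowest Gjb5 value (3.20 TPM, Stk40-/-) was close to the highest Gjb2 value (3.12 TPM, wild type). Summed over the 17 genes, connexin transcripts were 236 and 261 TPM in wild-type libraries against 324 and 349 TPM in mutant libraries. Without Gja1 the sum was 44.8 and 54.3 TPM in wild-type libraries against 44.6 and 52.2 TPM in mutant libraries, with overlap. Gja1 made up 81.0% and 79.2% of the sum in wild type and 86.2% and 85.1% in Stk40-/- cells. The share of Gjb5 was 2.86% and 2.12% in wild type and 1.01% and 0.915% in Stk40-/- cells. The ratio of Gja1 to Gjb5 was 28.3 and 37.4 in wild type and 85.7 and 93.0 in Stk40-/- cells. Its lack of overlap follows from that of both genes. Sums, shares and ratios that hold Gja1 reuse the values that led to its choice and lend no support of their own. In bulk RNA, fewer cells with a transcript and less of it per cell cannot be told apart.

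**Figure D3:**
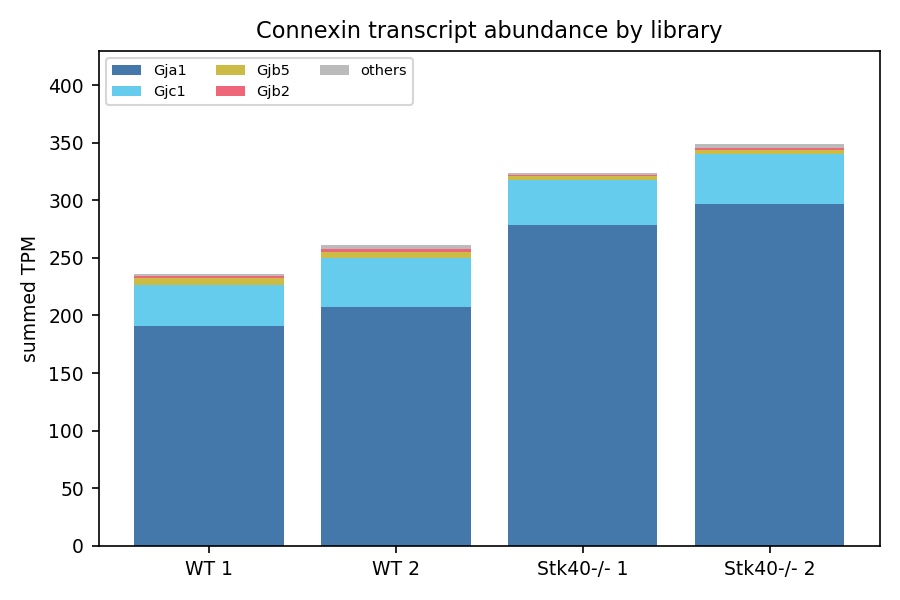
Summed TPM of the 17 connexin genes analysed (vertical axis) in each of the 4 libraries, stacked by gene. The sum is 236 and 261 TPM in wild-type libraries against 324 and 349 TPM in mutant libraries, and the Gja1 block is taller in both mutant libraries.

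Gjb5 starts 1214 kb beyond the end of Stk40 on chromosome 4, so the fold changes of genes between them were examined. Gja4, the gene of the endothelial Cx37, ends 40.8 kb before Gjb5 on that side and was at 0.448 and 0.492 TPM in wild-type libraries against 0.108 and 0.404 TPM in mutant libraries. It thus lay on the same side as Gjb5 without overlap, at a level too low to be tested. Of 25 tested genes between Stk40 and Gja4, 9 were higher and 5 lower without overlap (27.5% and 16.6% over all tested genes), with a median log2 fold change of 0.10 and a range from -0.39 to 2.30. None of the 25 was as low as Gjb5, but on the far side of Stk40 Heyl (-0.89) and Gm12901 (-0.80) were lower than Gjb5 within 3 Mb, and each overlapped between genotypes. Whether the deletion or the line bears on Gjb5 through its position was not tested.

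**Figure D4:**
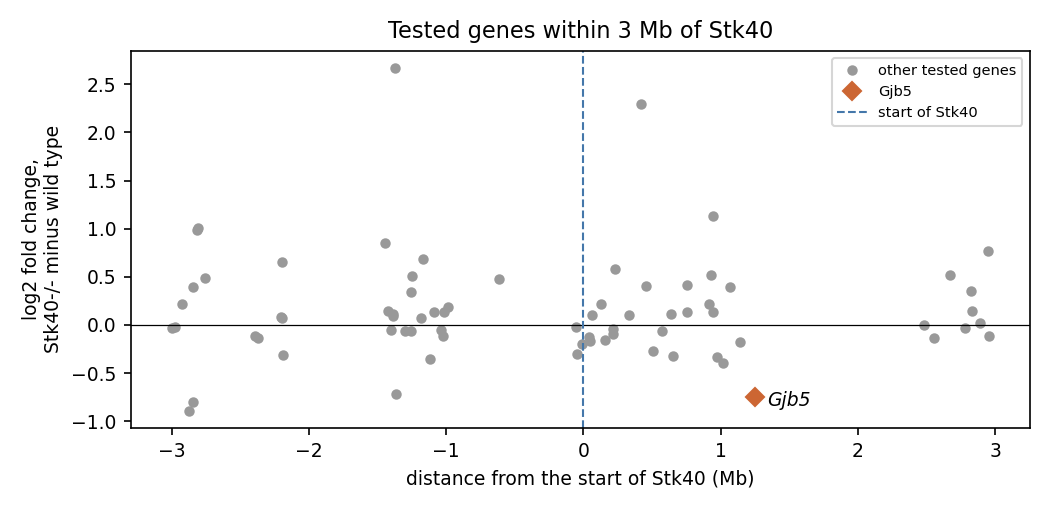
Log2 fold change of Stk40-/- minus wild type (vertical axis) of tested genes within 3 Mb of the start of Stk40, by distance in Mb (horizontal axis), with Gjb5 as a diamond and no genes drawn between Gja4 and Gjb5. Gjb5 at -0.75 lies below all 25 tested genes between Stk40 and Gja4, while 2 of the 72 other genes drawn, Heyl and Gm12901 to the left of Stk40, lie lower still.

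Pannexins are relatives of the invertebrate innexins that form channels in a single membrane and release ATP. Panx1 was at 21.0 and 29.4 TPM in wild-type libraries against 11.4 and 23.3 TPM in mutant libraries, so the groups overlapped (log2 fold change -0.57, SE 0.54, limma adjusted p = 0.634). Its value went from -1.05 without Stk40-/- library 2 to -0.09 without Stk40-/- library 1. Panx2 was at 1.23 and 0.870 TPM in wild-type libraries against 0.498 and 2.21 TPM in mutant libraries, also with overlap, and Panx3 was listed at 0 in all libraries. Neither of the 2 tested pannexins was called.

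**Figure D5:**
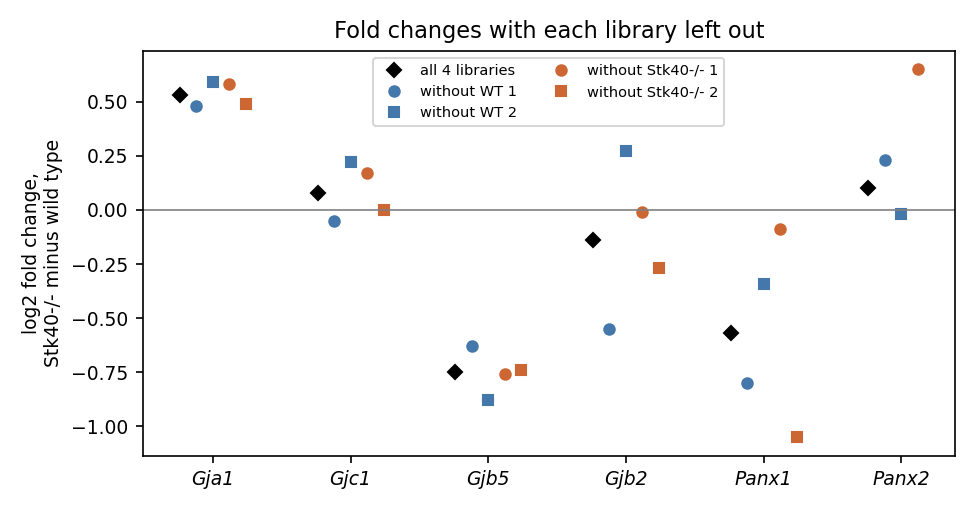
Log2 fold change of Stk40-/- minus wild type (vertical axis) of the 4 connexins and 2 pannexins that averaged 1 TPM or more, with all 4 libraries (diamonds) and with each library left out. Gja1 stays between 0.48 and 0.59 and Gjb5 between -0.88 and -0.63, whereas Gjc1, Gjb2 and Panx2 change sign, and Panx2 has no value without Stk40-/- library 2, where its mean falls under the filter.

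Gap junctions are assembled beside adherens and tight junctions, whose scaffolds hold connexins in place, and they are removed through ubiquitin ligases and the endosomal sorting machinery. A list of 21 such partner genes was drawn up, of which 20 were in the table by these names and 19 were tested. In limma 0 were called in either direction. In 11 of the 19 both Stk40-/- libraries were higher without overlap, beside 27.5% of all tested genes, and in 2 they were lower, beside 16.6%. The median log2 fold change was 0.19 beside 0.07 over all genes. When all libraries were set to the same median, 6 of the 19 were higher, beside 18.7% of all tested genes, and 2 were lower, beside 25.1%. The median was 0.11 in that setting.

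Cdh1, the gene of E-cadherin, was at 264 and 268 TPM in wild-type libraries against 329 and 325 TPM in mutant libraries (log2 fold change 0.30, limma adjusted p = 0.323). Nedd4, a ubiquitin ligase that binds Cx43, was at 581 and 615 TPM in wild-type libraries against 674 and 693 TPM in mutant libraries. Tsg101, a sorting protein that takes up ubiquitinated cargo, was at 84.3 and 88.7 TPM in wild-type libraries against 104 and 112 TPM in mutant libraries. These genes had the smallest unadjusted p of the list, followed by the N-cadherin gene Cdh2 (36.3 and 17.6 against 13.5 and 13.4 TPM) and the tight junction gene Ocln (15.6 and 18.5 against 22.2 and 21.2 TPM). Cdh1, Nedd4, Tsg101 and Ocln thus lay on the same side as Gja1 and Cdh2 on that of Gjb5, each without overlap and without a call.

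Cx43 is opened, closed and turned over through phosphorylation, and 15 genes of kinases and phosphatases known to act on connexins were all tested. In limma 0 were called, 2 were higher and 1 lower without overlap, beside 27.5% and 16.6% of all tested genes. The median log2 fold change of 0.07 was beside 0.07 over all genes. With equal library medians it was -0.01, with 2 genes higher and 3 lower beside 18.7% and 25.1%. The ERK gene Mapk3 was at 81.4 and 71.4 TPM in wild-type libraries against 92.9 and 94.0 TPM in mutant libraries, without overlap. The tyrosine phosphatase gene Ptpn1 was at 41.3 and 40.8 TPM in wild-type libraries against 56.0 and 45.9 TPM in mutant libraries. Mapk7 (38.5 and 44.5 against 44.2 and 50.4 TPM) and Tyk2 (7.96 and 10.2 against 10.5 and 9.73 TPM) overlapped between genotypes.

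Of 15 genes of transcription factors linked to Gja1, 13 were tested and 0 were called, with 4 higher and 3 lower without overlap, near the 27.5% and 16.6% of all tested genes, and a median log2 fold change of 0.08. With equal library medians the median was 0, and 1 was higher and 3 were lower beside 18.7% and 25.1%. Jun, the gene of c-JUN, was at 21.1 and 26.0 TPM in wild-type libraries against 18.8 and 21.8 TPM in mutant libraries, with overlap. Its partner gene Fos was at 4.01 and 4.84 TPM in wild-type libraries against 1.73 and 1.26 TPM in mutant libraries (log2 fold change -1.13, limma adjusted p = 0.4). Junb was at 20.1 and 21.3 TPM in wild-type libraries against 16.2 and 17.2 TPM in mutant libraries. Sp3, whose protein binds GC boxes, was at 57.6 and 46.9 TPM in wild-type libraries against 67.0 and 59.0 TPM in mutant libraries, and the Wnt effector gene Lef1 at 14.7 and 11.7 TPM and at 7.74 and 11.6 TPM. Fosl2, a further AP-1 gene, was at 8.53 and 4.70 TPM in wild-type libraries against 9.54 and 8.45 TPM in mutant libraries, with overlap. Fos, Junb and Lef1 thus lay on the side opposite to Gja1, each without overlap and without a call. Sp3, Sp1, Tcf7l1 and Tcf7l2 lay on the side of Gja1, also without overlap and without a call. The groups nearly touched in Lef1 (11.7 against 11.6 TPM in the nearest libraries) and in Tcf7l1 (23.8 against 23.9 TPM). The other AP-1 genes tested, namely Jun, Jund, Fosl1 and Fosl2, overlapped between genotypes. Protein levels were not analysed here.

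Other cell types that express these connexins could be present in the cultures, and their markers were read for that reason. The counts of markers without overlap stand beside 27.5% of all tested genes in the higher and 16.6% in the lower direction. Fibroblasts, which carry much Gja1, had 12 listed markers with 8 tested, of which 0 were higher and 4 lower without overlap. Their summed level was 52.1 and 81.2 TPM in wild-type libraries against 46.7 and 48.2 TPM in mutant libraries, with Col1a1 at 6.98 and 7.29 against 3.96 and 3.74 TPM and Lum at or near 0, while S100a4 was at 16.7 TPM in wild-type library 2 and at 0 in the others. Fbln1, the largest part of the sum, overlapped at 27.2 and 29.8 against 24.6 and 29.0 TPM, and so did Thy1 at 7.28 and 9.42 against 13.1 and 9.17 TPM. The part of these markers in the Gja1 values was not tested. Trophoblast markers, the company of Gjb5 in the placenta, had 7 of 12 tested, of which 0 were higher and 3 lower without overlap. Their sum was 58.9 and 59.9 TPM in wild-type libraries against 49.7 and 43.1 TPM in mutant libraries. Without Cdx2 the sums were 47.8 and 50.9 TPM against 48.3 and 42.2 TPM and overlapped, so that the separation rested on this gene. The 3 lower ones were Cdx2 (11.1 and 9.03 against 1.46 and 0.904 TPM), Ascl2 (3.92 and 3.94 against 1.26 and 0.835 TPM) and Plac1 (3.86 and 4.08 against 1.27 and 0.242 TPM). The other 4 overlapped, namely Tfap2c (13.5 and 21.3 against 21.8 and 21.1 TPM), Plet1 (13.3 and 11.8 against 11.2 and 14.3 TPM), Krt7 (9.04 and 6.60 against 9.35 and 2.53 TPM) and Hand1 (3.11 and 2.27 against 1.51 and 2.48 TPM). The trophoblast markers Tpbpa and Prl3d1 were at 0 in all libraries and Elf5 was near 0. Of the other untested markers, Tfap2a was low but higher without overlap in mutant libraries (0.154 and 0.163 against 0.741 and 0.328 TPM). Gata3 overlapped (0.852 and 0.66 against 1.06 and 0.283 TPM). The part of the trophoblast markers in the Gjb5 values was not tested.

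Embryonic stem cells also carry Gja1 and Gjc1. All 10 pluripotency markers were tested, with 3 higher and 3 lower without overlap, beside the same 27.5% and 16.6% of all tested genes. Their sum of 1014 and 1203 TPM in wild-type libraries against 1062 and 1098 TPM in mutant libraries overlapped. The higher ones were Nanog (113 and 132 against 219 and 166 TPM), Utf1 (125 and 148 against 229 and 203 TPM) and Klf4. The groups of Klf4 nearly touched at a low level (1.13 and 2.07 against 3.31 and 2.1 TPM). The lower ones were Dppa5a (290 and 326 against 150 and 160 TPM), Dppa4 and Zfp42. Pou5f1, the largest part of the sum, overlapped at 370 and 473 against 372 and 465 TPM. Neuroectoderm markers had 5 of 10 tested, with 3 higher and 0 lower, and sums of 89.2 and 92.6 TPM and of 101 and 131 TPM. Extraembryonic endoderm markers had 4 of 12 tested, with 0 higher and 1 lower, and sums of 14.3 and 17.4 TPM and of 13.1 and 14.2 TPM, with Ttr at 0. The streak and mesoderm sum was 1392 and 734 TPM in wild-type libraries against 465 and 308 TPM in mutant libraries, and 7 of the 8 tested were lower without overlap. The part of these differences in the Gja1 and Gjc1 values was not tested.

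The genes most like each connexin over the 4 libraries were found by the root mean square distance between log2(TPM + 1) values centred on each gene's mean, among genes that averaged 5 TPM or more. With 4 libraries such a likeness is a description only. Nearest to Gja1 were Uxt (distance 0.020), Hes6 (0.021), Abhd8 (0.027), Spire1 (0.028) and Ptpn3 (0.030). Uxt, for example, was at 41.0 and 44.2 TPM in wild-type libraries against 62.0 and 63.6 TPM in mutant libraries. Nearest to Gjb5 were Pde4d (0.032), Renbp (0.035), Hist1h4i (0.050), Scly (0.057) and Tspan2 (0.063), and Pde4d, the gene of a cAMP phosphodiesterase, was at 13.1 and 11.4 TPM and at 6.99 and 7.09 TPM.

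Nearest to Gjc1 were Slc29a4 (0.0090), Nf2 (0.015), D230025D16Rik (0.015), Plk3 (0.017) and Sall4 (0.017), all of which overlapped between genotypes as it did. Nearest to Gjb2 were Znrf1 (0.031), Sec14l4 (0.037), Rab23 (0.063), Romo1 (0.064) and Wdr24 (0.064), which shared its high wild-type library 2. Among the 4 connexins themselves Gja1 and Gjb5 were farthest apart, at a distance of 0.66, and Gjc1 was at 0.23 from both Gja1 and Gjb2.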

How the data were processed

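RNA was measured in 2 wild-type and 2 Stk40-/- libraries, grouped by their titles. Polyadenylated RNA was read in pairs of 100 or 150 bases on 2 instruments, per the labels' protocols, with no record of the instrument of each library, which left no batch to fit. Gene-level TPM were deposited, per the file headers, and every column adds up to 1000000. The submitters' processing notes list CASAVA 1.7, Salmon 0.8.2 and the human build hg38, whereas the IDs are of mouse genes, and the annotation is not given in the sources available. Salmon divides reads among similar transcripts, and TPM keeps no depth. There were 0 sample columns left unused.

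Positions came from GENCODE vM21 (GRCm38), where 51633 of 51826 IDs matched without the version, and promoters from RefSeq (GRCm38.p6). The 15739 genes averaging 1 TPM or more were fitted by limma 3.58.1 (R 4.3.3) on log2(TPM + 1), with an intensity trend, no replicate block and Benjamini-Hochberg adjustment at 0.05. The fit was also run on simulated data with known changes and independent noise. Its outcome is not reported here, so no rate of recovery is given. An exact permutation test of 2 against 2 libraries cannot give a p below 0.333. The members and lists were chosen with earlier results of these data known. Named genes were the 4 connexins, other connexins and pannexins with a mean of at least 1 TPM or in the Gjb5 cluster, Stk40 and Jun, the 5 genes of each list with the smallest unadjusted p, and the 5 most similar genes. Some genes that this rule or the lists take in are not reported here. Junction, regulator, marker and low connexin genes beyond these were named after their values were seen. Alternatives were other pseudocounts (0.1, 0.01), other filters (above 0, at least 5 TPM), equal library medians, removal of mitochondrial and ribosomal protein genes, a replicate block, no trend and each library left out.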

Additional observations from a re-analysis of the deposited data

How the results depend on the processing

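With each library left out in turn, the log2 fold change of Gja1 was 0.48 to 0.59, of Gjb5 -0.88 to -0.63, of Gjc1 -0.05 to 0.22 and of Gjb2 -0.55 to 0.27, so the sign of Gjc1 and Gjb2 rested on single libraries. The medians ranged from -0.30 to 0.24 for connexins, from 0.14 to 0.20 for partners and from 0.02 to 0.11 for kinases and phosphatases. Genes without overlap numbered 6288 to 6962 higher and 4219 to 5005 lower, against 4321 and 2609, since fewer libraries overlap less often. Equal library medians gave 0.45 for Gja1, 0.11 for partners, -0.01 for kinases and phosphatases and 3957 lower genes without overlap, so that 42.6% of the genes without overlap were higher in place of 62.4%. Gja1 stayed above and Gjb5 below without overlap in that setting. Gjb5 was -0.90 and -0.92 with pseudocounts of 0.1 and 0.01 TPM. The filter above 0 TPM gave 4019 lower genes without overlap. At 5 TPM, where Gjb2 and Gjb5 are not tested, the medians were 0.31 for connexins and 0.10 for kinases and phosphatases. The other 94 of 119 values kept their size within the spread between replicates, or within 1.5 times for counts, and limma called 0 genes in every setting. The replicate block called 0 genes (1282 higher and 836 lower at an unadjusted p under 0.05), the replicate differences of the genotypes correlated at 0.089 over genes, and the titles share only numbers.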
